A study of Mus musculus with 8 samples.

Results

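The MYC and MAX network was followed across 8 clonal mouse liver tumour lines through 10 genes: Myc, Mycn, Mycl, Max, Mxd1, Mxd3, Mxd4, Mxi1, Mnt and Mlx. The 10 were listed by name for their place in the network, and all of them are among the 22180 genes measured by a probe set that names 1 gene. Of the 8 lines, 4 were grown from intrahepatic cholangiocarcinoma (ICC), which resembles bile duct tissue, and 4 from hepatocellular carcinoma (HCC), which resembles hepatocytes. Every tumour, in either type, was started in C57BL/6 mice by c-Myc together with NrasG12V, an activated form of Nras, from the pCaMIN vector. ICC followed focal electroporation and HCC followed hydrodynamic tail-vein injection, so the tumour type and the route of delivery cannot be told apart. ICC9, ICC10, HCC2.1 and HCC2.4 are labelled female, and ICC2.7, ICC2.9, HCC1 and HCC4 male. Each line is a clone kept in culture without treatment and was hybridised to 1 Affymetrix array, so no line has a spread of its own. The labels do not say which lines share an animal, and the spread that enters each p-value is that between lines, which may not be independent.

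MYC proteins activate transcription as partners of MAX, bound to a short DNA element called the E-box. The MXD proteins, MXI1 and MNT compete for the same partner and recruit corepressors, so the network is often described as a balance between activating and repressing dimers. MLX stands in for MAX in a parallel branch that answers to glucose and its metabolites. In the liver, MYC drives growth and ribosome production, and its overexpression in hepatocytes is a common way of making tumours in mice.

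The median log2 value per array lay between 5.02 and 5.09. The 8 columns span only 7 directions, to within rounding, and the missing direction carries its largest weight on ICC9 (0.782) and the next on ICC10 (-0.538). Every column has some weight there, so each can be built from the others, ICC9 most closely and HCC4, with the smallest weight (0.0595), least closely. The main fit still counts the 8 columns as independent. The weights cancel within each type, so its p-values between the types lean low. Results are also given with that direction in the model, where 12 genes were called between the types, against 58 in the main fit. Lines whose names carry a 2. (ICC2.7, ICC2.9, HCC2.1 and HCC2.4) are the male ICC and the female HCC lines, so a difference between those names and the interaction of tumour type with sex are the same contrast and cannot be told apart. As for the labelled cell types, 1 of 8 measured hepatocyte markers (Hnf4a, Alb and others) lay above the median gene level of 5.66, as did 3 of 5 bile duct markers, 4 of 6 of fibroblasts, 0 of 5 of endothelium and 1 of 6 of immune cells. Albumin, the defining hepatocyte product, measured 4.12 to 4.45 in the HCC lines and 4.17 to 4.64 in the ICC lines.

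Mxd4 was the 1 member whose lines did not overlap between the types, as 8.63% of all genes did not, and limma did not call it (adjusted p = 0.0688). Its promoter is shown because it is the member with the largest difference in size and holds an E-box. RefSeq (GRCm38.p6) places the 250 bases before its start at chr5:34187711-34187960 on the minus strand, outside the gene body. They read as follows, with the E-box in capitals.
Mxd4 promoter: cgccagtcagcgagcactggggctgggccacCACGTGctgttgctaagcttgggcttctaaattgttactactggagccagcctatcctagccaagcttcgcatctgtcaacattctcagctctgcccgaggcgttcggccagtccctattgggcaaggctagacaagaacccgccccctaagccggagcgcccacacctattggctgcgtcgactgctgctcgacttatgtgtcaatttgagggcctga

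A search for the E-box CACGTG, which reads the same on both strands, covered windows around gene starts. Each ran from 250 bases before to 50 after a start, which need not be the outer end of the gene. Of the 9 members with a window, 4 held it, or 44.4%, against 8.09% of all 27025 genes with a window. Among the genes measured on the array the share was 9.19% of 16990. By list, MYC-activated targets held it in 12 of 39 genes (30.8%), targets of the MLX dimers in 3 of 12, the MLX and MGA partners in 1 of 3 and MYC-repressed genes in 1 of 10. Cofactors held it in 1 of 15 genes, stability regulators in 1 of 13 and proliferation genes in 1 of 17. The 4 members were a repressor of the MXD family, MNT, MAX and MLX, and their sites are set out with 12 bases on each side to show the element in each.
Mxd4 (chr5:34187912-34187941, minus strand): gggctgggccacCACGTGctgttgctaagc
Mnt (chr11:74830789-74830818, plus strand): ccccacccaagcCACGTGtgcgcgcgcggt
Mlx (chr11:101087238-101087267, plus strand): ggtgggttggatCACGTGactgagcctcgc
Max (chr12:76962234-76962263, minus strand): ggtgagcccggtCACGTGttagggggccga

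The E-box began 219 bases before the start of the window's transcript in Mxd4, 123 in Mnt and 40 in Mlx. In Max it began 3 bases before that start and ran across it. These starts are not all the ends of the genes. The stretches shown for Mlx (gene at chr11:101086707-101092207) and Max (gene at chr12:76937269-76962323) lie inside the gene. That of Mnt runs across the first base of its gene (chr11:74830806). Windows of Mycn, Mycl, Mxd1, Mxd3 and Mxi1 held no CACGTG. A match is a run of letters and not a measured binding site.

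The driver gene Myc (chr15:61985341-61990361) did not separate the tumour types. Its log2 RMA value was 8.55 in ICC9, 8.51 in ICC10, 8.71 in ICC2.7 and 8.31 in ICC2.9. In HCC lines it was 8.75 in HCC1, 7.85 in HCC4, 8.75 in HCC2.1 and 8.52 in HCC2.4. The types overlapped, and HCC4 was the lowest of all lines by 0.46. The means were 8.52 ± 0.16 in ICC and 8.47 ± 0.43 in HCC (SD, n = 4 each), with a difference of 0.05 log2 units (limma 95% interval -0.40 to 0.51, adjusted p = 0.934). Without HCC4 the difference was -0.15, so its sign rests on that line. The labels do not say whose Myc sequence the vector carries and probe positions were not used here, so transcripts of the vector and of the mouse gene cannot be told apart.

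The paralogs Mycn and Mycl, which serve as MYC in other tissues and at other stages, measured low on the array. Their means over all lines, 4.77 and 5.18, lay below the median gene level of 5.66, where signal over background was not assessed. Mycn ranged from 4.34 in ICC2.9 to 5.04 in HCC4, with means of 4.71 ± 0.26 in ICC and 4.83 ± 0.17 in HCC (difference -0.12, interval -0.45 to 0.20). Mycl had the widest range of the 10 genes, 1.15 log2 units. It was 5.23 in ICC9, 5.45 in ICC10, 4.41 in ICC2.7 and 4.98 in ICC2.9, against 5.30 in HCC1 and HCC4, 5.21 in HCC2.1 and 5.56 in HCC2.4. Both male-labelled ICC lines lay below every other line, and the types overlapped through ICC9 and ICC10. The difference of -0.33 (SE 0.21, interval -0.79 to 0.14) was not called (limma adjusted p = 0.521), and it was -0.12 without ICC2.7.

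**Figure D1:**
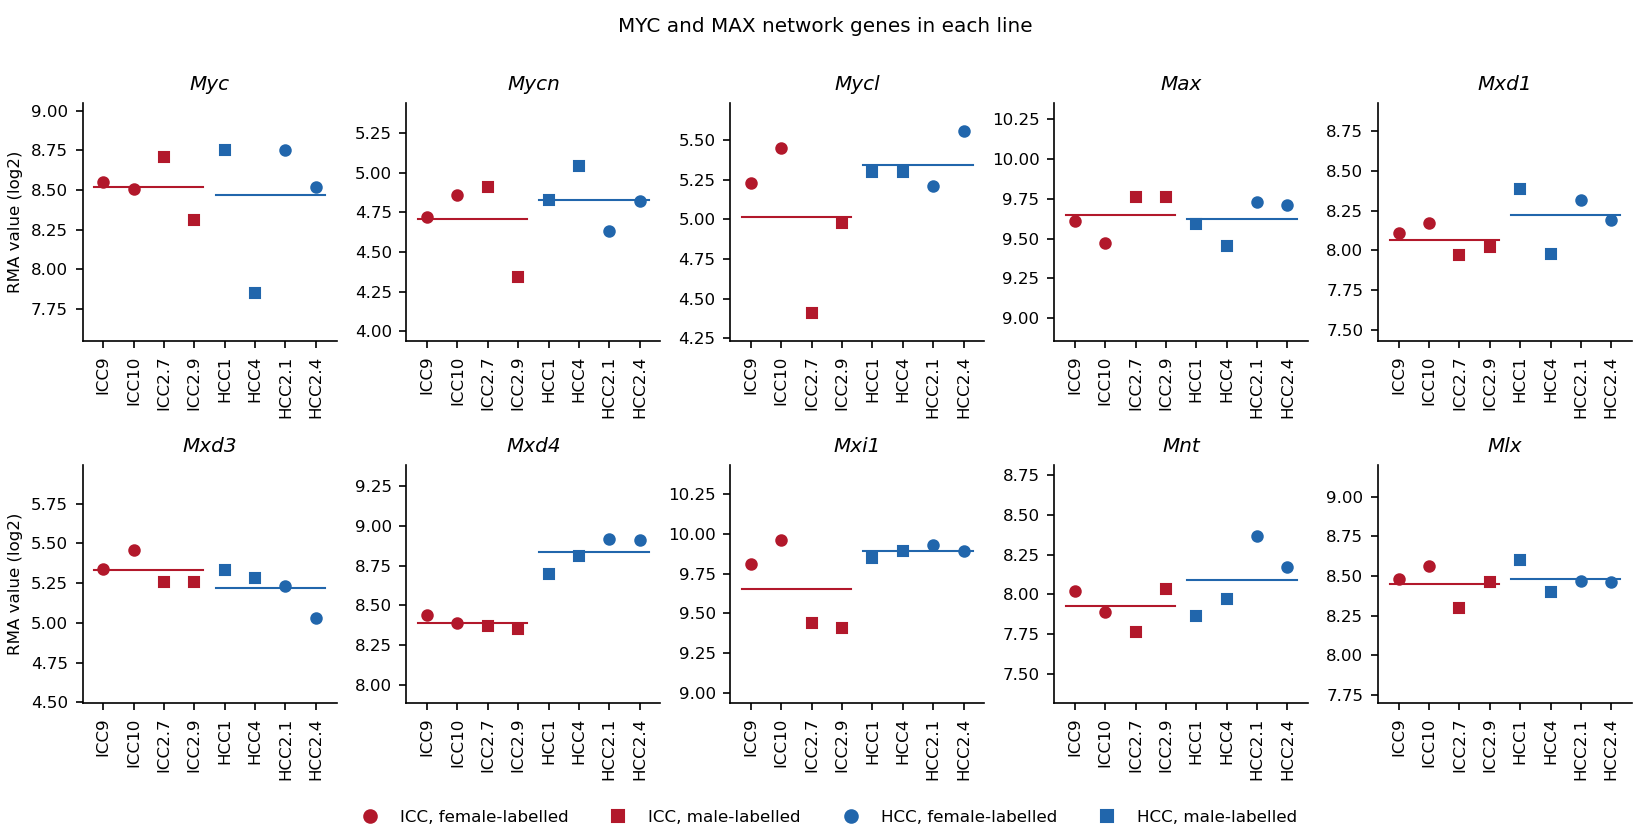
RMA values (log2, vertical axis) of the 10 genes in each of the 8 lines, 1 point per line, with circles for female- and squares for male-labelled lines. Horizontal bars are the means of the 4 ICC (red) and 4 HCC (blue) lines, and every panel spans the same number of log2 units. In the Mxd4 panel the ICC lines sit at 8.35 to 8.44 and the HCC lines at 8.70 to 8.92, and HCC4 is the low point for Myc at 7.85.

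Max (chr12:76937269-76962323), the shared partner, overlapped between the types, and 19.1% of all genes had a smaller SD over the lines. It measured 9.61 in ICC9, 9.47 in ICC10, 9.76 in ICC2.7 and 9.76 in ICC2.9, and 9.59 in HCC1, 9.45 in HCC4, 9.73 in HCC2.1 and 9.71 in HCC2.4. All 4 lines with a 2. in the name lay above the other 4, by 0.21 log2 units on average. The difference between types was 0.03 (SE 0.10, interval -0.20 to 0.26, limma adjusted p = 0.927). In female-labelled lines ICC was lower than HCC by a difference of -0.18, and in male-labelled lines it was higher by 0.24. The test of that contrast, the interaction of type and sex, gave -0.42 (SE 0.15, unadjusted p = 0.0256) and was not called over all genes (adjusted p = 0.189). Without overlap between the 2. lines and the others were 2 of the 10 members, Max and Mxd3, against 5.58% of all genes. Asked within each sex alone, ICC and HCC lay apart in opposite directions in these 2 members and in 11.1% of all genes.

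Mxd4 (chr5:34176580-34187710), a repressor of the MXD family that is typically raised as cells stop dividing and differentiate, was lower in every ICC line than in any HCC line. It measured 8.44 in ICC9, 8.39 in ICC10, 8.37 in ICC2.7 and 8.35 in ICC2.9. In the HCC lines it measured 8.70 in HCC1, 8.81 in HCC4, 8.92 in HCC2.1 and 8.91 in HCC2.4. The ICC lines lay within 0.09 of each other, and the gap to the lowest HCC line was 0.26. Means were 8.39 ± 0.039 and 8.84 ± 0.10 (SD, n = 4 each), a difference of -0.45 log2 units (SE 0.081, interval -0.63 to -0.26), or 1.36-fold. The difference was -0.50 in female- and -0.39 in male-labelled lines. Over all genes it narrowly missed the threshold (limma adjusted p = 0.0688), and by unadjusted p it ranked 127 of 22180. With sex in the model it was called (adjusted p = 0.0273), as it was among genes above the median level alone (0.0441). With the missing direction in the model it was not (0.194), nor with the direction and sex together (0.106). Of all 22180 genes, 8.63% set the types apart without overlap, and 1 of the 10 members did.

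Mxi1 (chr19:53310128-53373293), another repressor that pairs with MAX, was low in the male-labelled ICC lines. Its brighter probe set read 9.81 in ICC9, 9.96 in ICC10, 9.44 in ICC2.7 and 9.41 in ICC2.9, and 9.85, 9.89, 9.93 and 9.89 in HCC1, HCC4, HCC2.1 and HCC2.4. ICC2.7 and ICC2.9 lay below all other lines, while the HCC lines lay within 0.08 of each other. The second probe set, which is dimmer, gave 8.39, 8.66, 7.80 and 7.97 in the ICC lines in the same order and 8.65, 8.54, 8.55 and 8.44 in the HCC lines. Both probe sets thus put ICC2.7 and ICC2.9 lowest. The difference between types was -0.24 (SE 0.13, limma adjusted p = 0.461) by the first and -0.34 (SE 0.18) by the second. The interaction of type and sex was 0.42 (SE 0.14, unadjusted p = 0.0216) and was not called (adjusted p = 0.177), and the female minus male difference was 0.25 (SE 0.10, adjusted p = 0.265). Fibroblast markers, 6 measured, had a mean level of 7.11 in ICC2.7 and 6.65 in ICC2.9, against 5.75 to 6.26 in the other 6 lines. Of these markers Col1a1, Pdgfrb and Acta2 were highest in ICC2.7 and ICC2.9, while Col1a2 (6.69 and 6.77) was matched by HCC4 (6.78). Des (5.17 and 4.97) lay below every HCC line (5.37 to 6.86), and Dcn stayed at 3.11 to 3.39 in all lines. The part of the fibroblast markers in the Mxi1 values was not tested.

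**Figure D2:**
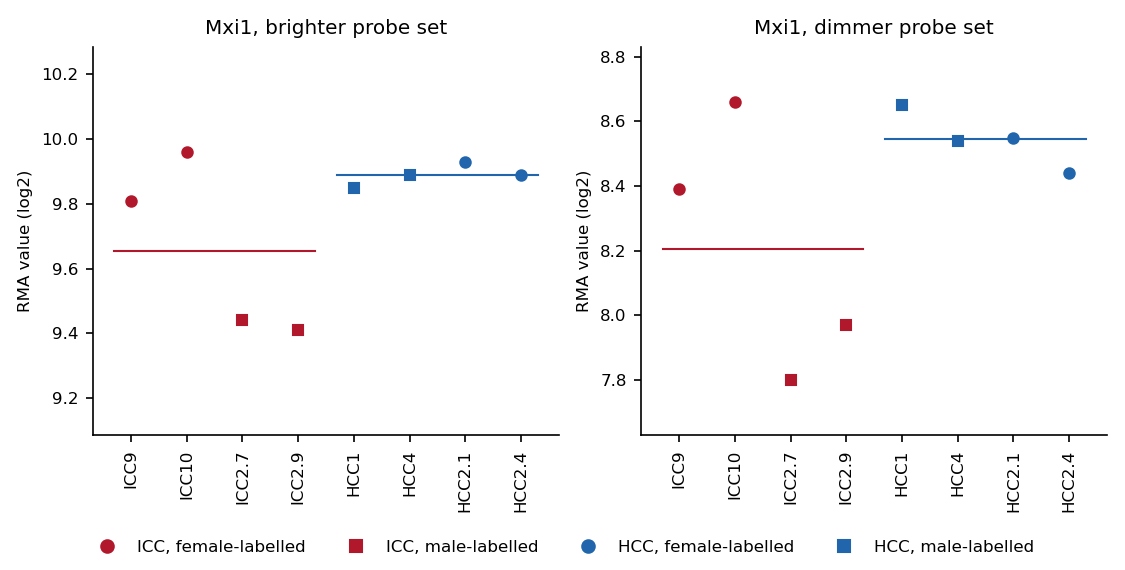
RMA values (log2) of the 2 Mxi1 probe sets in each line, 1 point per line, with bars at the mean of the 4 lines of each type. ICC2.7 and ICC2.9 are the lowest in both panels, at 9.44 and 9.41 on the left and 7.80 and 7.97 on the right.

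The other repressors overlapped between the types. Mxd1, induced in differentiating cells, ranged from 7.97 to 8.17 in ICC and from 7.98 in HCC4 to 8.39 in HCC1 (difference -0.15, interval -0.39 to 0.09). Mnt, the repressor present in most cell types, measured 7.92 ± 0.13 in ICC and 8.09 ± 0.23 in HCC lines (SD, n = 4 each; difference -0.17, interval -0.45 to 0.12), with HCC2.1 at 8.37 and HCC2.4 at 8.17 above all others. Mxd3, the MXD member linked to dividing cells, lay below the median gene level. It measured 5.34 in ICC9, 5.46 in ICC10, 5.26 in ICC2.7 and ICC2.9, 5.33 in HCC1, 5.28 in HCC4, 5.23 in HCC2.1 and 5.03 in HCC2.4. The 4 lines with a 2. in the name were the lowest, although the nearest values differed by only 0.02. Its type difference was 0.11 (interval -0.10 to 0.33), the only positive sign among the 5 repressors.

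Mlx, the partner of the glucose-responsive branch, was the steadiest member. Its values ran from 8.30 in ICC2.7 to 8.60 in HCC1, and 6.8% of all genes had a smaller SD over the 8 lines. The type difference was -0.03 (SE 0.088, interval -0.23 to 0.17). MLX binds MLXIP and MLXIPL, the glucose sensors, and MGA joins MAX to a separate repressive complex. None of the 3 partner genes was called: Mlxip differed by -0.19 (adjusted p = 0.626), Mlxipl by -0.09 (0.596) and Mga by 0.04 (0.925), all from the same limma fit. Mlxip was highest in HCC2.1 at 8.70 and HCC2.4 at 8.52, and lowest in ICC2.9 at 7.95. Mlxipl, the main sensor of hepatocytes, had a low reading of 5.02 to 5.19 in every line.

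Across the 10 members limma called 0 between the types at an adjusted p under 0.05, against 58 of 22180 genes, or 0.261%. At an unadjusted p under 0.05 there was 1 member, Mxd4, against 14.1% of all genes, so that the members' share is near the background. ICC was lower in 7 members and higher in 3, and the median difference was -0.14, against 0.00 over all genes. The median size of a difference, whatever its sign, was 0.14 for the members and 0.13 for all genes. Between female- and male-labelled lines, with type in the model, 0 members were called against 2.94% of all genes, and 1 member (Mxi1) had an unadjusted p under 0.05, against 17.5% of all genes. For the interaction 0 members and 0% of genes were called, while 2 members (Max and Mxi1) passed 0.05 unadjusted, as did 20.1% of all genes. These shares are near the background. The 0% depends on the model, since with the missing direction in it the interaction called 255 genes and 0 members.

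**Figure D3:**
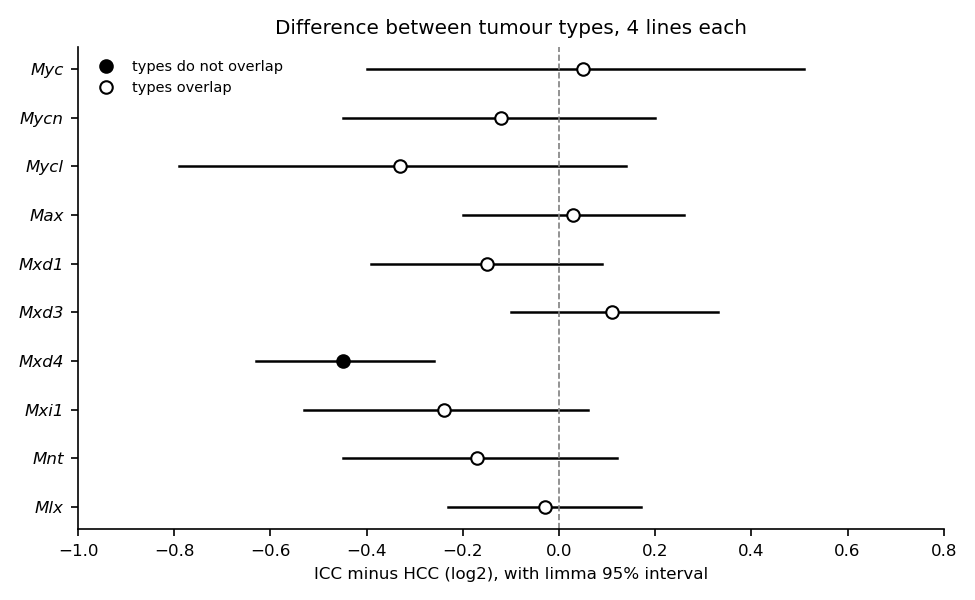
Difference ICC minus HCC (log2, horizontal axis) of the 10 genes, with the limma 95% interval over 4 lines per type. The filled point marks the gene whose types do not overlap, Mxd4 at -0.45, and it is the only interval that leaves out 0; intervals are not adjusted for the number of genes.

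Genes around the network were grouped by role. Cofactors of MYC and the corepressors of MXD dimers, 15 measured, had 0 called and a median difference of 0.01. Ep400, a chromatin remodeller that works with MYC, differed by -0.39 (SE 0.10, limma adjusted p = 0.163), from 9.97 to 10.36 in ICC and from 10.39 to 10.62 in HCC lines. Hdac1, a deacetylase of the corepressor complex, differed by 0.30 (adjusted p = 0.229). Regulators of MYC protein stability, 14 measured, had 0 called and a median of 0.16. Cip2a, which protects MYC from dephosphorylation, measured 8.54 to 9.16 in ICC and 7.60 to 8.15 in HCC lines (difference 0.96, SE 0.17, adjusted p = 0.0688). The kinase Aurka, which also belongs to the proliferation genes, measured 8.43 to 9.11 and 7.67 to 8.16 (0.87, adjusted p = 0.0806).

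MYC-activated targets, mostly genes of ribosome production, nucleotide and amine synthesis and the cell cycle, had no called gene and no common sign. Of 40 measured, 24 had a positive and 16 a negative difference, and the median was 0.06. The 2 with the smallest p were lower in ICC: the nucleolar gene Gnl3 by -0.28 (limma adjusted p = 0.211) and the hexokinase Hk2 by -0.30 (0.289). By line the mean of the 40 was 9.88 in ICC9, 9.82 in ICC10, 10.15 in ICC2.7, 10.10 in ICC2.9, 10.02 in HCC1, 9.97 in HCC4 and 9.90 in both HCC2.1 and HCC2.4. HCC4, lowest for Myc, was in the middle of these values.

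Of all 22180 genes, 11019 were lower in ICC lines. Genes that MYC represses, 13 measured, were lower in ICC lines in 10 cases, with a median of -0.35. The stress gene Gadd45b was the 1 called (ICC 6.93 to 7.45, HCC 8.42 to 8.86; difference -1.40, SE 0.15, adjusted p = 0.014), and it was not called without ICC9. Ndrg2, a growth-restraining gene, differed by -1.27 (SE 0.23, limma adjusted p = 0.0722). The list mean lay at 8.09 to 8.34 in ICC and at 8.70 to 8.77 in HCC lines, without overlap, while Myc itself overlapped. Singly, only Gadd45b, Ndrg2, Clu (difference -1.51) and Thbs1 (-1.57) of the list set the types apart without overlap, as 8.63% of all genes did. Of the hepatocyte markers 5 of 8 were lower in ICC, with a list mean of 4.45 to 4.52 in ICC and 4.54 to 4.76 in HCC lines. One of them, Hnf4a, stood at 7.26 in HCC2.1 and 7.06 in HCC2.4 and between 5.32 and 5.92 in the other lines. Without Hnf4a, left out after the values were seen, the list mean was 4.32 to 4.36 in ICC and 4.37 to 4.51 in HCC lines. Of the immune markers 5 of 6 were lower (means of 4.62 to 5.30 and 5.08 to 5.51), and Ptprc was higher by 0.14. Among them only Cd68 lay above the median gene level, at 7.31 to 10.04 in ICC and 9.09 to 10.21 in HCC lines. Of the fibroblast markers, which share Col1a2 with the MYC-repressed list, 5 of 6 were higher (5.75 to 7.11 and 5.79 to 6.26). The part of these markers in the difference was not tested.

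Targets of the MLX dimers, genes of sugar and fat metabolism, were lower in ICC lines in 11 of 14 cases, with a median of -0.29 and 0 called. Over all genes 11019 of 22180 were lower. Khk, the fructose kinase, measured 7.21 to 7.87 in ICC and 8.35 to 8.63 in HCC lines (difference -0.90, SE 0.15, limma adjusted p = 0.054). Gpd1, a glycerol phosphate dehydrogenase, measured 5.94 to 6.92 and 7.51 to 7.97 (-1.30, SE 0.21, adjusted p = 0.0551). Txnip, the best-known readout of this branch and named here after its value was seen, measured 9.02, 8.31, 9.30 and 8.95 in turn in ICC9, ICC10, ICC2.7 and then ICC2.9. In HCC lines Txnip measured 9.06 in HCC1, 10.25 in HCC4, 10.85 in HCC2.1 and 10.79 in HCC2.4, so that HCC1 lay among the ICC lines (difference -1.34, SE 0.39, adjusted p = 0.188). The list mean was 7.56 to 7.69 in ICC and 7.96 to 8.06 in HCC lines. The hepatocyte marker mean given above (4.45 to 4.52 against 4.54 to 4.76) and the immune one (4.62 to 5.30 against 5.08 to 5.51) lay lower in ICC lines on average too. Bile duct markers (mean 6.72 in ICC, 6.53 in HCC) and fibroblast markers (6.38 and 5.96) lay higher on average, and endothelial ones stood at 4.82 and 4.85. By line the bile duct mean overlapped, at 6.36 to 7.08 in ICC and 6.11 to 6.81 in HCC. Of its 5 genes, 3 were higher in ICC and 2 lower. Krt19 measured 8.97 in ICC9 and 9.26 in ICC10, but 6.89 in ICC2.7 and 6.39 in ICC2.9 (type difference 0.85, limma adjusted p = 0.666). The part of any of these markers in the values of the MLX target list was not tested.

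Of all 22180 genes, 11161 were higher in ICC lines. Proliferation genes were higher in ICC lines in all 19 measured cases, with a median of 0.89. Ccnb2, a mitotic cyclin, was the 1 called (ICC 8.88 to 9.36, HCC 7.78 to 8.11; difference 1.17, SE 0.13, adjusted p = 0.014), and it was not called with the missing direction in the model or without ICC9. The division marker Mki67 differed by 1.25 (SE 0.21, limma adjusted p = 0.0551). The list mean was 8.71 in ICC9, 8.67 in ICC10, 9.20 in ICC2.7 and 9.29 in ICC2.9, and 8.68 in HCC1, 7.79 in HCC4, 7.97 in HCC2.1 and 8.10 in HCC2.4. HCC1, which had the lowest Mxd4 of the HCC lines, had the highest proliferation mean of that type and overlapped ICC10. The other HCC lines did not keep that order. HCC4, next lowest for Mxd4 (8.81), had the lowest proliferation mean, and HCC2.1 and HCC2.4, highest for Mxd4 (8.92 and 8.91), lay between. A link between Mxd4 and these genes was not tested.

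**Figure D4:**
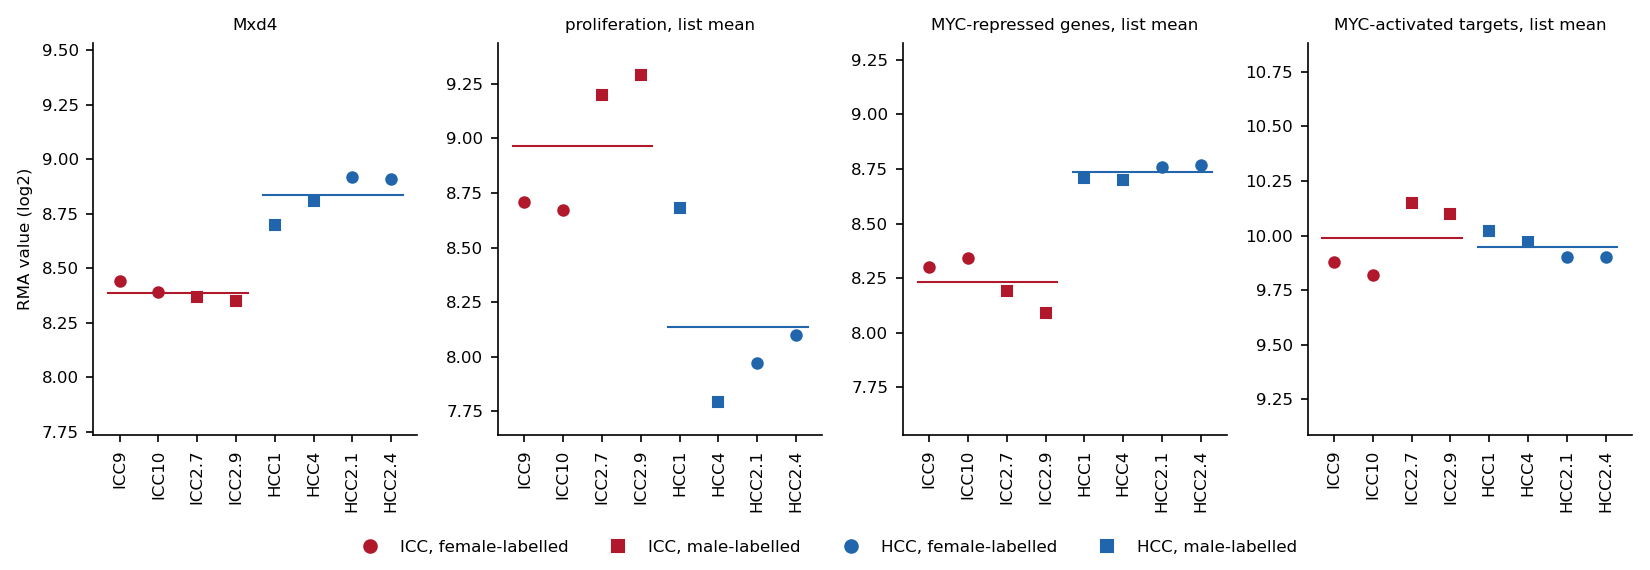
Mxd4 and the mean of 3 gene lists in each line (log2, all panels spanning the same number of units), 1 point per line, with bars at the type means. Mxd4 and the MYC-repressed genes leave a gap between the types, the proliferation mean of HCC1 (8.68) reaches ICC10 (8.67), and the MYC-activated targets overlap.

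**Figure D5:**
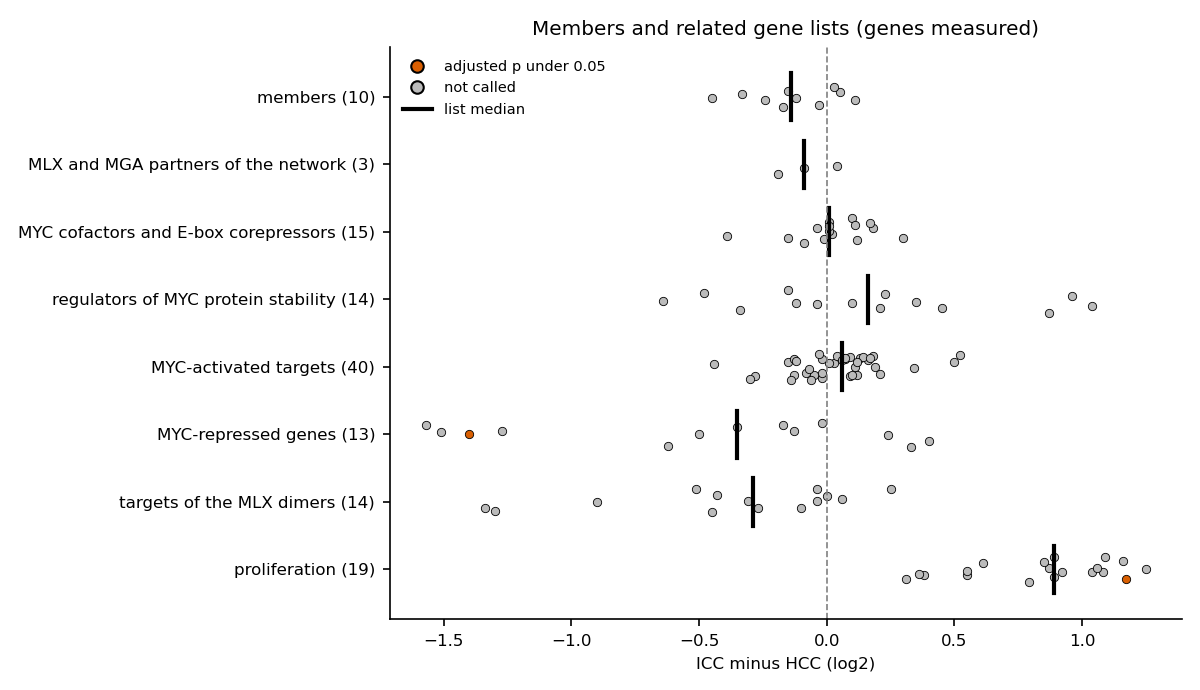
Difference ICC minus HCC (log2, horizontal axis) of each measured gene in the members and the 7 related lists, with the number measured in brackets and a bar at each median. Orange points are the 2 genes called over all genes, Gadd45b at -1.40 and Ccnb2 at 1.17; vertical scatter within a row has no meaning.

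Genes with a pattern like that of a member were sought by Pearson correlation over the 8 lines among 3701 other genes with an SD of at least 0.3, as a description without a test. The 8 points are not independent, since the columns span 7 directions and lines of a type and sex have a consensus correlation of 0.398. For Mxd4 the 4 most alike were Cndp2, a dipeptidase (r = 0.993), the growth factor gene Igf1 (0.989), the steroid dehydrogenase gene Akr1c18 (0.986) and the homeobox gene Nkx6-1 (0.986). The gap between types is part of these values, and with the type means taken out they were 0.95, 0.95, 0.85 and 0.97. For Mycl they were Hsdl2 (0.973), Mien1 (0.962), Skap2 (0.958) and Mapre3 (0.956), each with its lowest value in ICC2.7, and 0.82 to 0.88 without that line. For Myc they were Fbxw20 (0.917), Prdm8 (0.896), Abcb1a (0.877) and Itga2 (0.876), which all had their lowest value in HCC4. Without HCC4 these values were between 0.57 and 0.70. Fbxw20 measured only 2.64 to 3.63, below the median gene level of 5.66, where signal over background was not assessed.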

How the data were processed

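RNA from 8 clonal lines (4 ICC, 4 HCC) was labelled with the Affymetrix WT PLUS kit, 1 array per line. The authors deposited log2 values, made by RMA in the oligo package per the submitters' processing notes, with versions and annotation not given in the sources used here. Of 39993 probe sets, 23521 name exactly 1 gene in the platform annotation, 1814 several and 14658 none. Each gene was represented by the probe set with the highest mean (22180 genes; Mxi1 alone among the members had a second). No filter was applied, and the number of arrays limits precision.

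Types were compared with limma 3.58.1 in R 4.3.3 (lmFit, eBayes, two-sided, Benjamini-Hochberg over all genes, threshold 0.05; 6 residual and 2.85 prior degrees of freedom), with type alone in the model. Sex was tested with type in the model, and the interaction with both. An SE is limma's moderated SE. The fit was tested on simulated data in which the lines were independent, which does not hold for the columns here. Members and lists were chosen with earlier results of these data known. Named genes were the members, Mki67 and, per list, up to 4 called genes or the 2 with the smallest p. The 4 genes most alike Myc, Mycl and Mxd4 were named too. Txnip, Clu, Thbs1, Pim1, Pim3, Plk1, Mga and the cell type markers lie outside this rule. Of the lists, 3 cofactors, 1 stability regulator, 6 activated targets, 1 repressed gene and 1 proliferation gene were not analysed here for want of a probe set naming them alone. Protein sequences were not used here. Alternatives are in the closing section.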

Additional observations from a re-analysis of the deposited data

Results flagged for a closer look

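Among the members, 2 moved in opposite directions in the female- and male-labelled lines, with no overlap in either, as did 11.1% of all genes. For Max, ICC lay below HCC in every female-labelled line and above it in every male-labelled line, and the interaction was -0.42 (limma adjusted p = 0.189). For Mxd3, ICC lay above HCC in the female-labelled lines and below it in the male-labelled lines, by 0.27 and -0.04, with an interaction of 0.31 (adjusted p = 0.314). Neither difference was called. Mxd3 lay below the median gene level, and its nearest male-labelled values differed by only 0.02. The same contrast sets lines with a 2. in the name against the others, so name and sex cannot be told apart here. In 20 groups of 4 lines, 2 per member, 0 had a line standing apart by Dixon's criterion.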

How the results depend on the processing

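Across 177 values of the members under 18 alternatives (17 for members below the median level, which the filter on level removes), 2 passed the threshold, both for Mxd4, and 7 changed sign. Myc turned to -0.01 without ICC2.7 and -0.15 without HCC4, Max to -0.01 without ICC2.7 or ICC2.9 and -0.03 without HCC4, and Mlx to 0.02 without ICC2.7 and 0.01 without HCC1. On leaving out each line Myc ranged from -0.15 to 0.15, Max from -0.03 to 0.09 and Mlx from -0.07 to 0.02, while Mycn reached 0.00 without ICC2.9. Of the members that kept their sign, Mycl moved from -0.33 to -0.12 without ICC2.7, Mxi1 from -0.24 to -0.15 without ICC2.9 and Mxd1 from -0.15 to -0.23 without HCC4. Mnt moved from -0.17 to -0.08 without HCC2.1 and -0.11 without ICC2.7, Mxd3 from 0.11 to 0.05 without HCC2.4 and 0.07 without ICC10, and Mycn from -0.12 to -0.05 without HCC4 and -0.19 without ICC2.7 or HCC2.1. The cause was not tested. Mxd4 kept its direction in 18 of 18 (-0.49 to -0.42, adjusted p from 0.0273 to 0.274). The count of members called between types was 1 with sex in the model or with genes above the median level only, and 0 to 0 on leaving out each line. The count of all genes called was 58, and 428 with sex, 12 with the missing direction, 119 with both, 6 with lines of a type and sex as a random block (consensus correlation 0.398), 103 with genes above the median level only, and 2 (without ICC9) to 109 (without HCC1) on leaving out a line. The sex comparison called 653 genes, 280 with the missing direction and 146 to 917 on leaving out a line; the interaction called 0, 255 with the missing direction and 0 to 238 on leaving out a line. Members called stayed at 0 in both. The number of positive differences in each list moved by at most 3 genes without ICC9 or with the missing direction, both chosen after seeing the data. No paired analysis was possible because replicate numbers only follow the order of the samples.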

Other observations

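Among the kinases that act on MYC protein, Pim1 and Pim3, which phosphorylate and stabilise it, were lower in ICC lines, while Plk1, a mitotic kinase, was higher. They were chosen after their values were seen. Pim1 measured 8.29 to 8.92 in ICC and 9.16 to 9.49 in HCC lines (difference -0.64, SE 0.15, limma adjusted p = 0.111). Pim3 measured 8.10 to 8.54 and 8.55 to 8.83 (-0.34, adjusted p = 0.247), so both genes set the types apart without overlap, as 8.63% of all genes did. Plk1 measured 9.40 to 10.34 and 8.53 to 9.21 (1.04, adjusted p = 0.105).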
